A study of Homo sapiens with 54 samples.

Results

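The late-opening regions of MDA-MB-231 cells are 2775 stretches of the genome where an accessible site was listed, among samples of this line, only in cells examined 10 days after cisplatin had been removed. They were selected on presence in peak lists: a peak in 3 of 3 day 10 lists, in 0 of 3 day 1 lists and in 0 of 3 control lists of MDA-MB-231. Peaks of all 18 lists merged into 232138 regions, and 3313 of these met that pattern. Of these, 538 were dropped because they also had a peak in 3 of 3 PC3 day 10 lists and in 0 of 3 PC3 control lists, which left the 2775.

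MDA-MB-231 is a triple-negative breast cancer line with a mesenchymal phenotype, and PC3 is a prostate cancer line derived from bone. Treated cultures received cisplatin, which forms platinum crosslinks in DNA, and surviving cells were sampled 1 or 10 days past its withdrawal, while control cultures had no drug. Each of the 6 groups (control, day 1 and day 10 of each line) had 3 biological replicates, each divided into 3 parts before tagmentation, which gives 54 sequenced samples and 18 deposited peak lists, 1 per biological replicate. Both are established lines grown in culture, survivors are compared with untreated cells of the same line, and the series title describes the resistant cells as polyploid.

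ATAC-seq uses a transposase to cut and tag DNA that is not wrapped in nucleosomes or otherwise covered. Accessible sites lie mainly at promoters, which are open in most cell types and often rich in CpG, and at enhancers, which lie between genes or in introns, are used by fewer cell types and are bound by sequence-specific factors. Among those factors, AP-1 (dimers of the Fos and Jun families) is induced by stress and growth signals, and TEAD factors act with YAP downstream of cell shape and contact.

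Because few late-opening regions lie at promoters, the ones that do are shown first. Of the 2775 regions, 26 overlapped 1 or more promoter windows of 300 bp (250 bases before to 50 after a RefSeq start site, GRCh38.p14), 31 windows of 29 genes in all, with 12 protein-coding and 17 lncRNA genes. The first 5 below held a match to the AP-1 motif TGANTCA, searched on both strands. They belong to S100A12, a calcium-binding protein of myeloid cells (chr1:153375572-153375871, minus strand), FNIP2, a folliculin-binding protein (chr4:158805589-158805888, plus strand), SLC7A8, an amino acid transporter (chr14:23155271-23155570, minus strand), LRRC74A, a leucine-rich repeat protein (chr14:76826158-76826457, plus strand), and the lncRNA gene LROMI1 (chr17:14373861-14374160, plus strand). Sequences are from RefSeq and run 5′ to 3′, and capitals mark motif matches.
S100A12: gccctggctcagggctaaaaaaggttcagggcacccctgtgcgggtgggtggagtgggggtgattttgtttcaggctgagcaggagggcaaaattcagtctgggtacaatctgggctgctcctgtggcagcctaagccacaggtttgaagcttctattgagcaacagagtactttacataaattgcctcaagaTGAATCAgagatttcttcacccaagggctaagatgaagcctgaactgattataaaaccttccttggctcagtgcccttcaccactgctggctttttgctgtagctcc
FNIP2: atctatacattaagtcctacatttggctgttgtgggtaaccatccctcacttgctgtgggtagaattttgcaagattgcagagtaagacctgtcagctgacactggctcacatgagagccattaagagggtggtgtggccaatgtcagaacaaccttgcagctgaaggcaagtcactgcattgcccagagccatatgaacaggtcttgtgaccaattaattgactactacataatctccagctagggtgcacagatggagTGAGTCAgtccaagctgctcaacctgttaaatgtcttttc
SLC7A8: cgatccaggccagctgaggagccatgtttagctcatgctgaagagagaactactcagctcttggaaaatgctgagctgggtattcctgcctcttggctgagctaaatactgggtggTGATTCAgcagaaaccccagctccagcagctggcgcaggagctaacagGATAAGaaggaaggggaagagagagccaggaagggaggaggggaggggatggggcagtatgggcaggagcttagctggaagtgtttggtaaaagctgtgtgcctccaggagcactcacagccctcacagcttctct
LRRC74A: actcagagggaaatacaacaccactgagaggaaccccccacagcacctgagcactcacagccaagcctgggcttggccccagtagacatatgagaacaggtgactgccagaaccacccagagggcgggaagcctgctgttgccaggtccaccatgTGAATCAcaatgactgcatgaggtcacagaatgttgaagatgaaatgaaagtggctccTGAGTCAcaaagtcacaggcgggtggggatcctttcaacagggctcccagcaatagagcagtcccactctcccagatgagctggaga
LROMI1: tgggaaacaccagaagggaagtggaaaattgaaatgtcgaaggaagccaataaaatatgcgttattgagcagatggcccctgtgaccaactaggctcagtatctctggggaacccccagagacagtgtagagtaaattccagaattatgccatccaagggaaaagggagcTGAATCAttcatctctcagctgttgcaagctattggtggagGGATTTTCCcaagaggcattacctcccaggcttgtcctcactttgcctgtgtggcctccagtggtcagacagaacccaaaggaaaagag

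In these windows the capitals are the AP-1 match in each, a second AP-1 match in LRRC74A, the GATA motif GATAAG in SLC7A8 and the NF-kappaB motif GGANTTTCC in LROMI1. The AP-1 match began 57 bases before the start site in S100A12, 134 before it in SLC7A8 and 80 before it in LROMI1. In FNIP2 it began 10 bases into the transcript side of the window. LRRC74A had its matches 95 and 37 bases before the start site.

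A further 3 windows are shown because they had no AP-1 match. They belong to SCGB1D2, a secretoglobin of glandular epithelium (chr11:62241989-62242288, plus strand), HAL, the histidine-degrading enzyme of skin and liver (chr12:95996295-95996594, minus strand), and NOX5, a calcium-regulated NADPH oxidase (chr15:69014445-69014744, plus strand). In NOX5 the capitals mark a match to the TEAD motif GGAATG.
SCGB1D2: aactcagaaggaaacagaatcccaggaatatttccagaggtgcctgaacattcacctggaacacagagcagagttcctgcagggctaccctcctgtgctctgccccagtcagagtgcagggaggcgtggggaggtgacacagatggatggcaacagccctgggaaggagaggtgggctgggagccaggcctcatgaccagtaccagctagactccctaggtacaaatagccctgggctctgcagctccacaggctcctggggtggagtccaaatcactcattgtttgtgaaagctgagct
HAL: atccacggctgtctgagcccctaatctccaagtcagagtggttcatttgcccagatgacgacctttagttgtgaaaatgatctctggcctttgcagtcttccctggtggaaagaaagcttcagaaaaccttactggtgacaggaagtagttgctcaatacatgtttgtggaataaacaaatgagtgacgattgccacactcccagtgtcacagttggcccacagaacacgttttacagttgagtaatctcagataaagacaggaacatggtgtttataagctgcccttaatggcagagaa
NOX5: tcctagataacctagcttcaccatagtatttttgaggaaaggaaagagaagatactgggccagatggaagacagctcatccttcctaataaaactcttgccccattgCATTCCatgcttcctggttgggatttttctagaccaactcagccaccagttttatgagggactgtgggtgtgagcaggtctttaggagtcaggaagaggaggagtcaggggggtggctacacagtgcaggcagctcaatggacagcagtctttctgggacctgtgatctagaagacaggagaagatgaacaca

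The promoter windows overlapping late-opening regions were poor in CpG. Their median was 2 CpG and 48% GC, against 14 CpG and 58.7% GC over all 34961 windows of the table. AP-1 matched 11 of the 31 windows (35.5%), against 7.68% of all windows and 12.7% of the 15813 windows with at most 10 CpG, the most that any of the 31 held. Counted by region, 9 of the 26 regions had an AP-1 match in a window. Windows of regions open at both day 1 and day 10 matched in 23.4% of 141. TEAD (GGAATG) matched 19.4% of the late-opening windows, against 19.1% of all windows with at most 10 CpG. The GATA motif matched 9.68%, against 10.2%. No window matched the CRE motif TGACGTCA, RUNX (TGTGGTTT), C/EBP (TTGCGCAA), E-box (CACGTG) or ETS (CCGGAAGT), and 1 window matched NF-kappaB. These are letter matches in few windows, some of which overlap each other, so that 1 match can count in more than 1 window (both windows of SLC7A8, for example). They describe the 31 windows and not the remaining regions, whose sequence was not read.

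The counts of regions near the selection limits put the class in proportion. Just outside the rule lay 3792 regions with a peak in 2 of 3 day 10 lists and none in day 1 or control lists, and 8597 with a peak in 1 of 3. A further 2281 had 3 of 3 day 10 lists but also 1 of 3 day 1 lists, and 64 had 3 of 3 day 10 lists and 1 of 3 control lists. On the PC3 side, 171 kept regions had 3 of 3 PC3 day 10 lists and 1 of 3 PC3 control lists, and 221 had 2 of 3 and 0 of 3. The class would hold 5258 regions without day 10 replicate 2, the shortest day 10 list, and 4365 without day 1 replicate 1, the longest day 1 list. The other 7 MDA-MB-231 lists, left out in turn, each left the count within 1.5 times of 2775. The deposited lists had from 82392 to 165535 peaks and covered from 54.4 to 82.3 Mb, and depth is unknown, so a region absent from a list may have been below its calling limit.

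Late-opening regions carried small peaks. The deposited peak area, a score with a floor of 200 in these lists, had a median over late-opening peaks of 327 in day 10 list 1, 273 in list 2 and 383 in list 3. Other peaks of the same lists had medians of 539, 545 and 570. The late-opening regions therefore stood, at the median, at percentile 26.0 of all peaks by area in list 1, 16.1 in list 2 and 31.6 in list 3. Of the late-opening peaks, 91.6%, 96.9% and 89.3% lay below the median area of lists 1, 2 and 3, and 0% reached the top decile of any of them. Regions open at both times stood higher, at median percentiles of 38.6, 33.0 and 43.6, and the regions with 2 of 3 day 10 lists stood lower, at 13.1, 7.74 and 14.1.

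**Figure D1:**
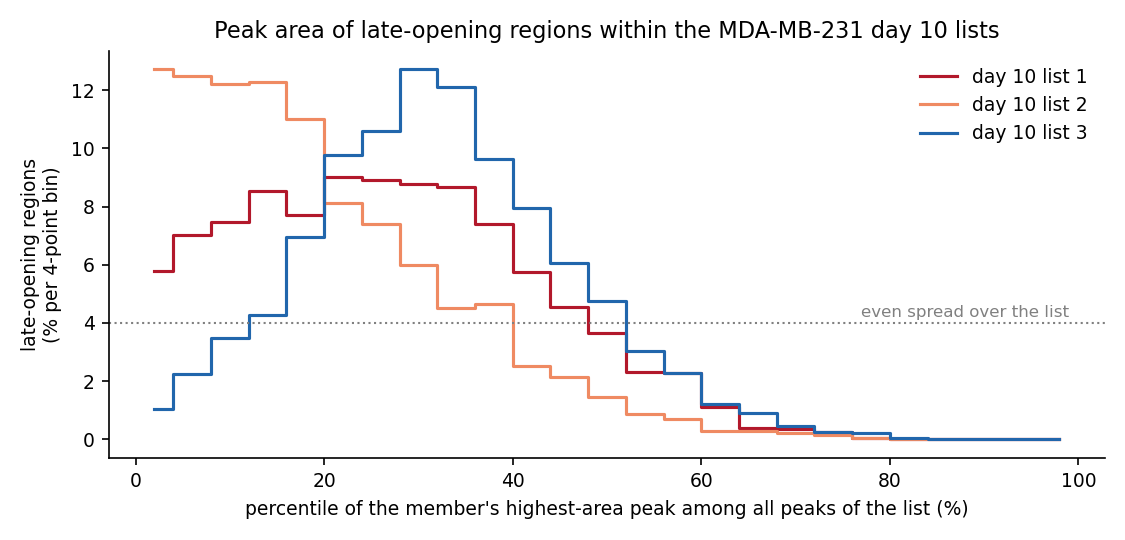
Distribution of the 2775 late-opening regions (% per bin, vertical axis) over the percentile of their highest-area peak among all peaks of each MDA-MB-231 day 10 list (horizontal axis), 1 line per list. In each list most regions lie below the middle of the ranking, and list 2 has its highest bins at the bottom, next to the floor of the deposited areas.

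Many late-opening peaks in list 2 were close to the floor. Areas under 250 made up 35.6% of late-opening peaks in list 2, 19.9% in list 1 and 5.94% in list 3, against 10.7% to 11.5% of the other peaks. The median −log10 p of late-opening peaks was 4.02, 3.70 and 4.17 in lists 1, 2 and 3, against 4.79, 4.56 and 4.74 for the others. The order of the regions by area was shared between lists in part: Spearman's rho over the 2775 regions was 0.476 between lists 1 and 2, 0.459 between lists 1 and 3 and 0.706 between lists 2 and 3. These correlations run across regions that share their libraries.

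The 10 late-opening regions of highest area were all away from gene ends, and all but 1 had peaks in PC3 too. A region in CEP112, a centrosomal protein gene (chr17:65850236-65851028), had areas of 979, 1100 and 1244 in day 10 lists 1, 2 and 3, and a peak in all 9 PC3 lists. Next were regions 272 kb from ST3GAL1, a sialyltransferase gene, and in ADGRV1, an adhesion receptor gene, also in all 9 PC3 lists. A region 149 kb from NR2F1, an orphan nuclear receptor gene, had areas of 846, 848 and 1084 and was in 1 of 3 PC3 control, 3 of 3 PC3 day 1 and 3 of 3 PC3 day 10 lists. The remaining regions among the 10 highest lay in DGKG or near YJU2B, CMYA5, ZHX3, CDH10 and XCL2. The one near XCL2, a lymphocyte chemokine gene, was in 0 of 9 PC3 lists, with areas of 931, 893 and 908. At the other end, the 5 lowest regions lay in OR10H5, ZNF714, PCSK5 and PLPP3 and 684 kb from FRG1, with areas between 200.1 and 239.

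In the widest regions, MDA-MB-231 peaks covered a small part. Region width is the union over all lists, and had a median of 376 bp for late-opening regions, whereas the late-opening peaks themselves had median widths of 255, 266 and 289 bp. The widest was 3617 bp, 95.4 kb from DIO3, the thyroid hormone-inactivating deiodinase gene, of which 1063, 735 and 782 bp were covered in day 10 lists 1, 2 and 3. The next were a 3423 bp region in ZMIZ1 and regions nearest FER1L6, STMN2 and CPQ, each with under 400 bp covered in every day 10 list.

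Late-opening regions were seldom at gene ends, as were the larger sets of regions just outside the rule. A gene end (a window of 1 kb on both sides of where a protein-coding gene starts or stops) held 1.77% of them (49 regions; 95% Wilson interval 1.34% to 2.33%), against 4.44% of regions open at both times, 10.1% of transient regions (3 of 3 day 1 lists only), 16.1% of the other 87902 regions in 3 of 3 day 10 lists and 8.76% of all regions. Over 10 kb from any protein-coding gene lay 54.7% (52.8% to 56.5%), against 46.6%, 26.7%, 33.3% and 39.0% of those classes in the same order. Gene-poor stretches (875 of 3041 consecutive 1 Mb blocks, those holding 0 or 1 gene) contained 18.6% of late-opening regions, against 13.6%, 7.13%, 8.11% and 13.7%. The larger sets of regions just outside the rule had close values. Those with 2 of 3 day 10 lists had 1.71% at gene ends, 51.5% over 10 kb from a gene and 16.6% in gene-poor stretches. Those with 1 of 3 day 10 lists had 2.22%, 50.0% and 18.7%, and those with 1 of 3 day 1 lists had 1.97%, 52.7% and 17.4%. The 64 regions with 1 of 3 control lists differed, with 4.69%, 23.4% and 4.69%. No difference between these classes was tested. Intervals cover counting error only, and neighbouring regions are not independent.

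**Figure D2:**
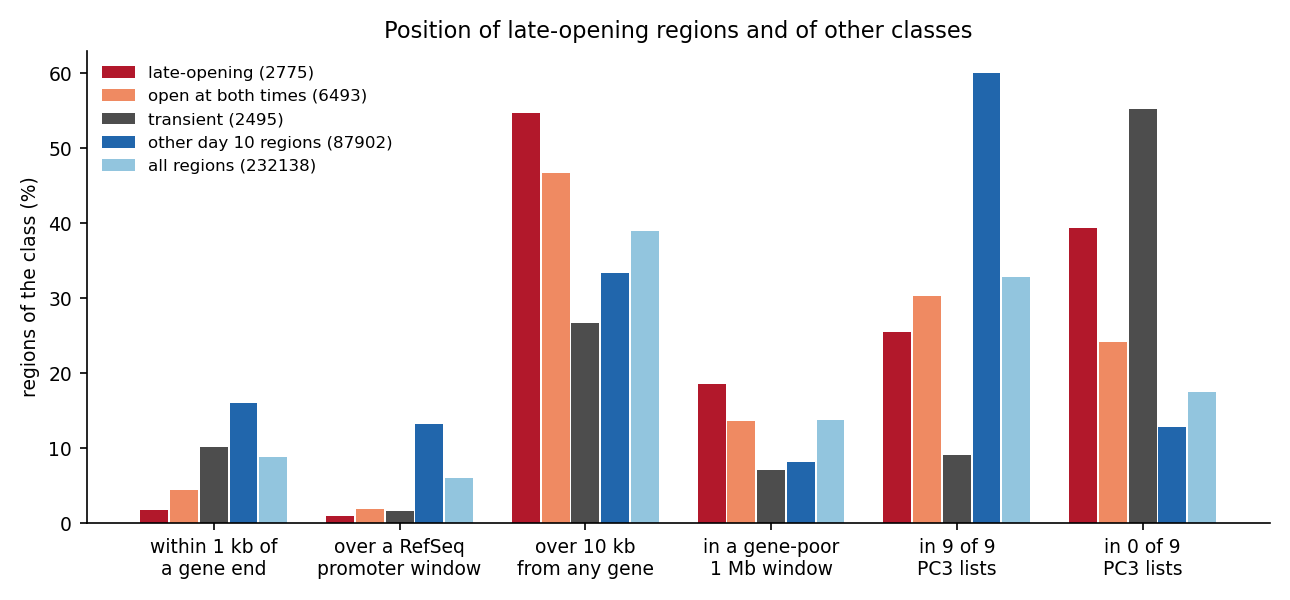
Share of regions (%, vertical axis) by position and by presence in PC3 lists for 5 classes, with the number of regions in the key. Among the 5 classes plotted, the late-opening bars are the lowest for gene ends (1.77%) and promoter windows (0.937%). They are the highest for regions over 10 kb from a gene (54.7%) and for gene-poor stretches (18.6%). Regions with 2 of 3 day 10 lists, not plotted, have close values, such as 1.71% at gene ends. The 64 regions with 1 of 3 control lists, also not plotted, do not, with 4.69% at gene ends.

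Distances to sites open in every MDA-MB-231 list were also near those of the larger sets of regions just outside the rule. The median distance to the nearest of the 65125 regions with a peak in all 9 MDA-MB-231 lists was 22.6 kb, against 17.9 kb for regions open at both times, 6.63 kb for transient regions and 13.4 kb for all regions. It was 22.7 kb for regions with 2 of 3 day 10 lists, 22.3 kb for those with 1 of 3 day 1 lists and 26.2 kb for the 538 dropped for PC3. For regions with 1 of 3 day 10 lists it was 19.5 kb, and for the 64 with 1 of 3 control lists 4.10 kb. Of the late-opening regions, 24.2% lay within 5 kb of a region with a peak in any control list, against 27.6% of those open at both times and 53.0% of transient regions. Both measures use the lists of the rule, so they describe the class and were not tested.

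Of the 49 late-opening regions at gene ends, the 10 of highest peak area are named. The highest was at SLC13A3, a dicarboxylate transporter, with areas of 853, 609 and 931. SPATA18, a regulator of mitochondrial quality, followed with 628, 470 and 740, and S100A12 with 600.4, 538 and 618. The next 7 were ALPK1 (an innate immune kinase), XCR1 (the receptor for XCL chemokines), LOC105369787, OR56A5 (an olfactory receptor), SIRPB2, CD48 (a leukocyte surface protein) and FFAR2 (a short-chain fatty acid receptor). The regions at SPATA18, S100A12 and SIRPB2 were in all 9 PC3 lists, that at SLC13A3 in 7 of them, and the other 6 were in 0 of 9. Of the fixed list of haematopoietic genes, 0 of 17 had a late-opening region in the body or within 10 kb, beside 5.75% of all protein-coding genes. Whether these shares differ was not tested. Cell type markers did not separate the lines by presence. The mesenchymal genes VIM, CD44, AXL and ZEB1 and the epithelial genes CDH1, EPCAM, GRHL2, KRT8 and KRT18 were covered in every list of both. Of leukocyte genes, PTPRC had a median of 0 kb in both lines, while SPI1 (0.965 to 3.47 kb) and CD3E (0.595 to 1.54 kb) were covered in every list. CDKN2A, deleted in MDA-MB-231, had 0 kb in all 9 of its lists and 0.529 to 1.81 kb in PC3 lists.

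The regions were spread over all chromosome arms, in unequal shares. They made up 3.06% of the 90677 regions in 3 of 3 day 10 lists. Among the 41 arms with at least 100 such regions the share ran between 1.25% and 5.59%, with a median of 3.27%. The highest shares were on 4p (88 of 1574 regions, 5.59%), 5p (4.68%), 18p (4.50%), Xp (4.33%) and 8q (4.17%). The lowest were on 22q (20 of 1606, 1.25%), 19p (1.37%), 17q (1.46%), 16p (1.57%) and 15q (1.58%). Regions open at both times also made up a smaller share on 22q (3.18%) and 19p (3.77%) than on 4p (8.64%) and 5p (10.4%).

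**Figure D3:**
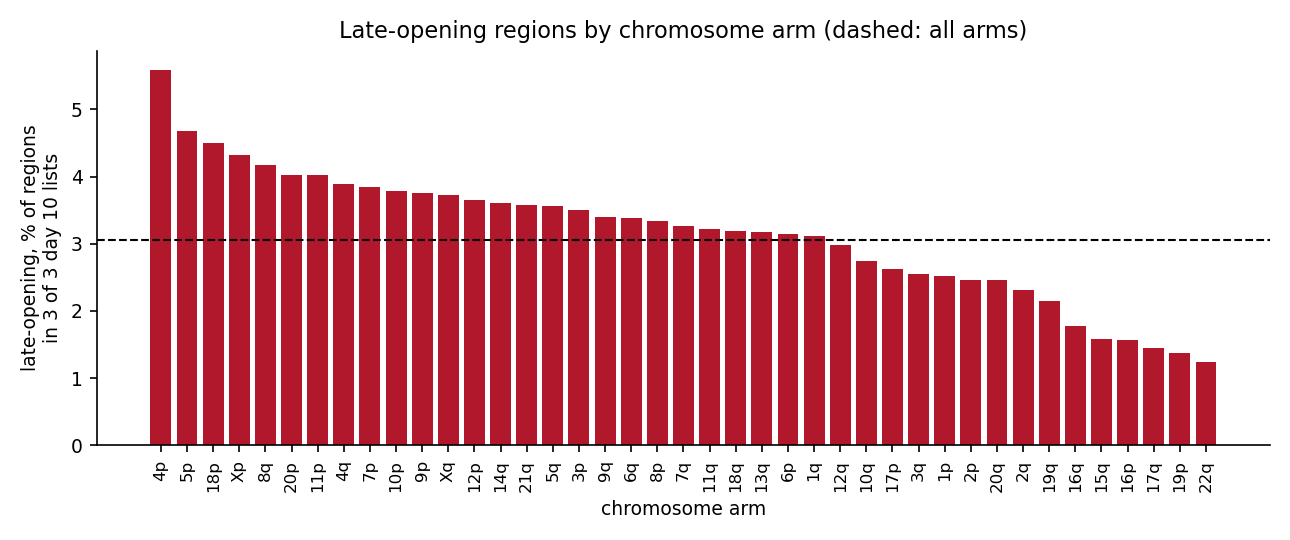
Late-opening regions as a share of the regions in 3 of 3 MDA-MB-231 day 10 lists (%, vertical axis) for the 41 chromosome arms with at least 100 such regions, sorted by share. The dashed line is the share over all arms, 3.06%, and the arms run between 5.59% on 4p and 1.25% on 22q.

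Most late-opening regions stood alone. The median gap between neighbours was 565 kb, and 2247 regions had no other within 50 kb. There were 215 pairs and 31 runs of 3 or more, which together held 528 regions (19.0%). The longest run had 6 regions over 162 kb of a stretch without a protein-coding gene (chr9:108511337-108672860), the nearest being ACTL7B. Of its 6 regions, 2 were in all 9 PC3 lists, 2 were in none, and the others were in 2 and 4 lists.

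The pair of runs with 4 regions each lay over named genes. One spanned PTGFRN, a tetraspanin-associated immunoglobulin-family protein, and CD101, a leukocyte inhibitory protein (chr1:116923449-117014655). The region in CD101 was in all 9 PC3 lists, and the others in 0 or 2 of them. The other run covered the matrix metalloproteinase genes MMP8, MMP10, MMP1 and MMP3 (chr11:102709358-102843880), secreted proteases that cleave collagens and other matrix proteins. The region 11.8 kb from MMP10 had areas of 667, 592 and 761 in day 10 lists 1, 2 and 3. That 1.62 kb from MMP1 had 633, 372 and 503. Areas were 512, 230 and 430 for the region 1.88 kb from MMP8 and 360, 301 and 378 for the one in MMP3. The region near MMP10 and the one in MMP3 were in all 9 PC3 lists, and the one near MMP1 was in 0.

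Coverage around the late-opening regions was higher at day 1 and day 10 than in control lists. Within 0.5 kb of the centre, peaks covered 0.0550% of bases in control, 0.122% in day 1 and 30.3% in day 10 lists of MDA-MB-231 (means of 3 lists), which the rule fixed. At 10 to 20 kb they covered 2.13%, 2.56% and 2.49%. Coverage over 50 kb on each side was also averaged per region, without the peaks at late-opening regions themselves, in bases for each Mb that the whole list covered. Control lists had 33.5 ± 0.287, day 1 lists 36.5 ± 0.272 and day 10 lists 38.2 ± 0.305 (SD, n = 3 each). The day 10 value was 14.0% above control and the day 1 value 8.84% above it. Around regions open at both times the day 10 value was 5.30% above control, and around transient regions the difference was −8.87%. In PC3 lists the same surroundings had 39.6 ± 0.505 in control, 40.7 ± 0.226 in day 1 and 42.2 ± 0.123 in day 10. These are descriptions, since the MDA-MB-231 lists chose the regions and neighbouring peaks move with them.

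**Figure D4:**
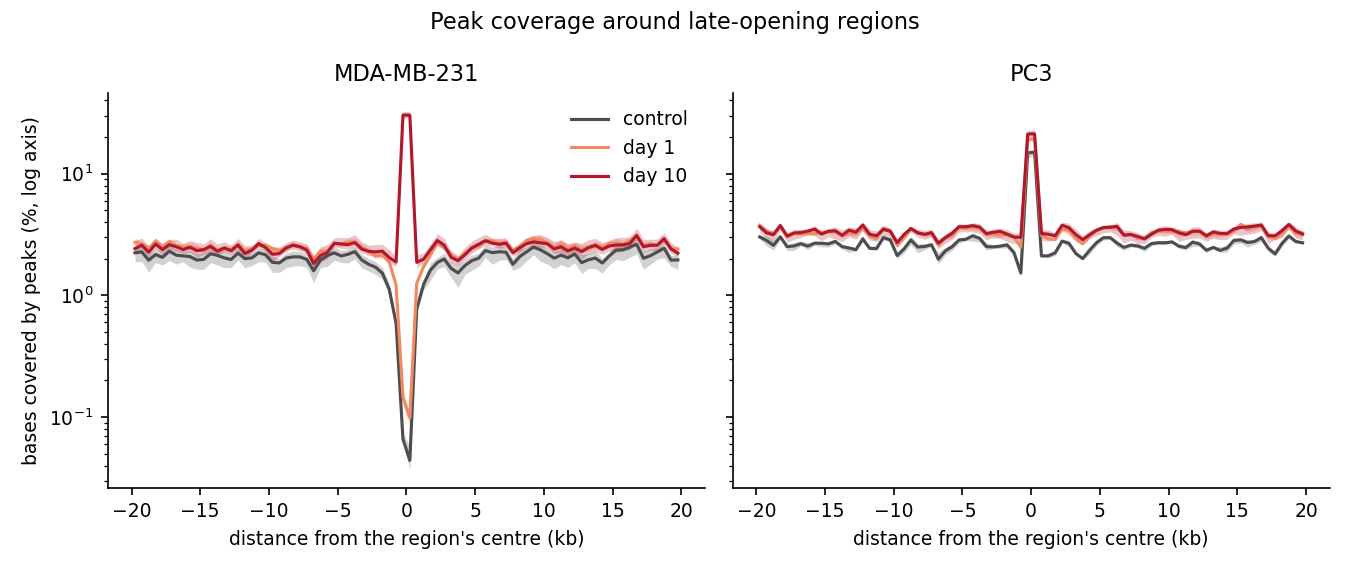
Share of bases covered by peaks (%, log axis) in 0.5 kb bins against distance from the centre of the late-opening regions (kb), for MDA-MB-231 (left) and PC3 (right). Lines are means of 3 lists and bands their range. The centre separates day 10 from day 1 and control in MDA-MB-231 because the rule requires it, and in PC3 the centre is covered at every time.

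The share of late-opening sites of MDA-MB-231 with PC3 peaks was below that of other regions in 3 of 3 day 10 lists, a comparison with no test. In bulk material, more cells with an open site and more accessibility per cell cannot be told apart. Of the 2775 regions, 778 had a peak in 3 of 3 PC3 control lists, 948 in 3 of 3 PC3 day 1 lists and 1062 in 3 of 3 PC3 day 10 lists. In all 9 PC3 lists were 706 (25.4%), against 32.8% of all regions, and in none were 1094 (39.4%), against 17.5%. Merging used all 18 lists, so all regions include those formed by PC3 peaks alone, which cannot be in 0 PC3 lists. Among the 87902 other regions in 3 of 3 day 10 lists, 59.99% were in all 9 PC3 lists and 12.9% in none. Regions with 2 of 3 day 10 lists had 18.3% and 40.3%. The PC3 lists also took part in the choice, through the exclusion. The regions in all 9 PC3 lists were wider (median 618 bp) than those in none (304 bp). Width is the union over all lists, so PC3 peaks add to it by construction. The position of these 2 sets was similar, with 57.1% and 55.6% over 10 kb from a gene.

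The PC3 lists show whether the same sites were listed more often after cisplatin in the other line. The 3313 regions before the PC3 exclusion were used, since the exclusion itself uses these lists. Of them, 61.5%, 57.9% and 50.2% had a peak in PC3 day 10 lists 1, 2 and 3, against 29.9%, 25.9% and 32.4% in PC3 control lists. Divided by the share of all regions that each list had, the values were 0.942 ± 0.0116 in day 10 and 0.648 ± 0.0936 in control lists (SD, n = 3 each), a difference of 0.294. The groups did not overlap, and the two-sided exact permutation test gave p = 0.1, the smallest that 3 lists against 3 allow. In PC3 day 1 lists the shares were 52.4%, 33.0% and 43.3%. Their ratio was 0.762 ± 0.0647, against the same control value of 0.648 ± 0.0936, with overlapping groups and an exact permutation p = 0.2 for the difference of 0.114. Both comparisons share the PC3 control lists.

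Other MDA-MB-231 classes had day 10 differences of similar size in PC3. Their day 10 ratios exceeded control ratios by 0.288 for regions open at both times and by 0.237 for transient regions, each without overlap. The kept 2775 regions, which lost the 538 that opened in PC3, had peaks in 48.1% ± 6.89 of cases in PC3 day 10 lists and 35.1% ± 3.91 in PC3 control lists. Their ratios were 0.799 and 0.773, a difference of 0.0261 that the exclusion bears on and that was not tested. Whether the difference between the classes is larger than the spread was not tested.

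**Figure D5:**
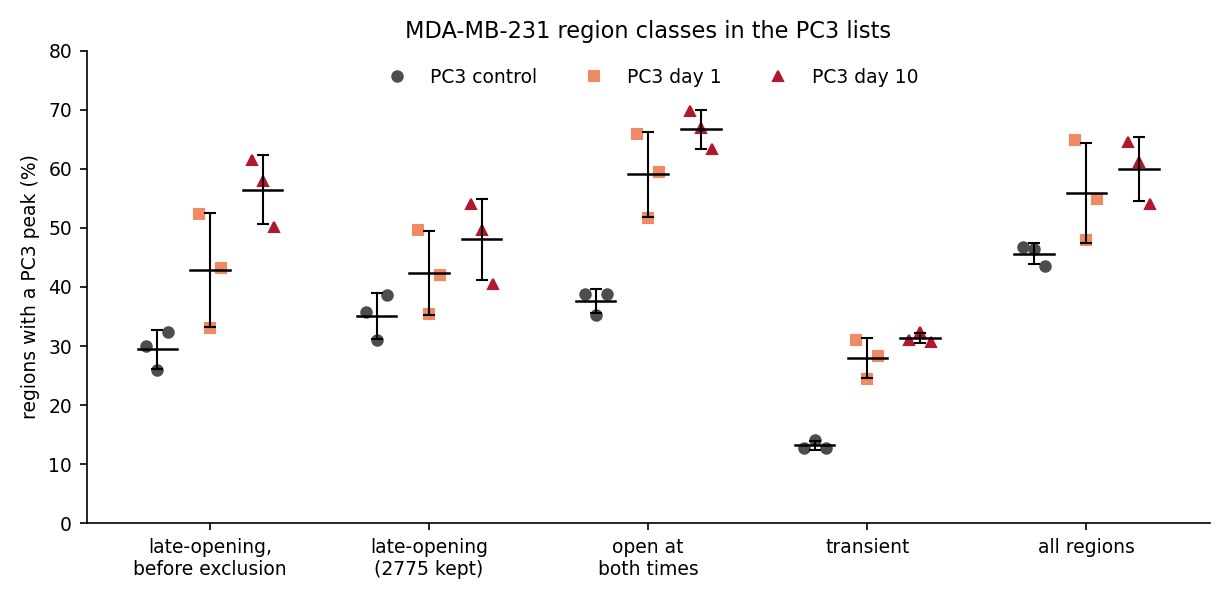
Share of regions with a peak in each PC3 list (%, vertical axis) for MDA-MB-231 region classes, with 1 point per list, the mean as a line and the SD as a bar. For the 3313 late-opening regions before the exclusion the day 10 points lie between 50.2% and 61.5%, all above the control points between 25.9% and 32.4%.

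Of 19974 protein-coding genes, 1149 (5.75%) had a late-opening region in the body or within 10 kb. Most had 1 (991 genes), and 37 had 3 or more. Long genes had one more often: 272 of the 771 genes of at least 300 kb (35.3%) had one, against 4.57% of shorter genes. SNX29, a sorting nexin, had 6 regions. ABTB3, COL19A1 (a fibril-associated collagen), RGS6 (a regulator of G-protein signalling) and ROBO1 (the axon-guidance receptor for SLIT ligands) had 5 each. ZBTB16 (the transcription factor PLZF), RASEF, DOCK2 (a Rac activator of leukocytes), HS6ST3 (a heparan sulphate sulphotransferase) and KCNIP4 had 4 each.

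Relative to length, the densest genes among those with at least 3 regions were shorter. Genes with fewer regions, such as CLDN5 with 1 (4.48 per 100 kb), were not ranked. SPATA18 had 3 regions in its body and 10 kb on each side, 4.55 per 100 kb, all in all 9 PC3 lists. MPZL1, an adhesion-signalling protein, had 3.34 per 100 kb and PTGFRN 2.99. PPARD, the lipid-sensing nuclear receptor, had 2.84, and ENPP2, which encodes autotaxin, the enzyme that makes lysophosphatidic acid, had 2.20. C10orf90 was the only gene among the 10 densest with all 3 regions in 9 PC3 lists besides SPATA18.

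The gene lists differed in how often they held a late-opening region, and also in gene length. Ion channel and glutamate receptor genes held one in 15 of 25 genes (median body 555 kb), very large fragile-site genes in 11 of 20 (1505 kb) and synaptic and neural adhesion genes in 8 of 25 (959 kb), beside 5.75% of all genes and 35.3% of those of 300 kb or more. Endothelial genes held one in 5 of 14, with a median body of 43.4 kb over the 14. Among the genes holding one, FLT1, VWF and TEK have bodies of 195, 176 and 121 kb. CLDN5 (2.31 kb) held one only in its 10 kb flank, where the region overlapped CDC45. Counts in the remaining lists were small. Mesenchymal genes held one in 3 of 20 (CD44, ZEB1 and ZEB2), or 15%, beside 5.75% of all genes. Secretory inflammatory factors held one in 2 of 26 (MMP1 and MMP3), or 7.69%. There was 1 each for p53 targets (DDB2), crosslink repair (BRIP1), epithelial (KRT5) and interferon-stimulated genes (OAS2), or 4.55% to 5% of each list. Haematopoietic genes, AP-1 and immediate early genes and housekeeping genes held 0 of 17, 0 of 20 and 0 of 20.

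In MDA-MB-231 the covered length of these genes contains the regions that chose them, so a day 10 value above day 1 and control is in part built in, and the values are a description. Values are kb under peaks between 10 kb before and 10 kb after each gene, brought to the same total per list. ENPP2 had 0.376, 0.282 and 0.402 kb in control lists 1, 2 and 3, 1.76, 1.34 and 1.38 kb in day 1 lists, and 4.21, 3.76 and 3.66 kb in day 10 lists. It was thus higher at day 1, where no late-opening region is listed, and higher again at day 10, with no overlap between the 3 times. ABTB3 had 1.44, 1.00 and 1.34 kb in control, 4.44, 4.19 and 4.49 kb in day 1 and 8.00, 6.63 and 7.67 kb in day 10 lists. CACNA1D, the L-type calcium channel subunit, had 0.866, 0.572 and 0.785 kb in control, 4.39, 2.50 and 4.29 kb in day 1 and 6.14, 4.38 and 4.97 kb in day 10 lists. In ABTB3 too the times did not overlap, while in CACNA1D the highest day 1 value was just above the lowest day 10 value.

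In other genes day 1 and control lists overlapped. PTGFRN had 0.510, 0 and 0.423 kb in control, 0.747, 0.601 and 0.401 kb in day 1 and 2.59, 2.05 and 1.64 kb in day 10 lists. MMP3 had 0.342, 0 and 0.218 kb in control, 0.300, 0.416 and 0.239 kb in day 1 and 1.58, 1.21 and 1.40 kb in day 10 lists. SPATA18 had 1.31, 1.57 and 1.24 kb in control, 1.26, 1.79 and 1.59 kb in day 1 and 2.64, 2.67 and 2.58 kb in day 10 lists. In PTGFRN and SPATA18, 3 of the 4 regions found in 3 of 3 day 10 lists were late-opening ones, and in MMP3 1 of 3, so the rule itself puts day 10 above the other times, at least in part.

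DMD, the dystrophin gene and one of the longest of the genome, had 0, 0.340 and 0 kb in control, 0.316, 0.609 and 0.585 kb in day 1 and 2.14, 1.29 and 1.73 kb in day 10 lists. FLT1, a VEGF receptor gene, had 0.535, 0.426 and 0.722 kb in control, 1.10, 0.813 and 0.810 kb in day 1 and 2.62, 2.18 and 2.21 kb in day 10 lists. KRT5, which encodes a keratin of basal epithelium, had 0 kb in each control list and had 0.969, 0.352 and 1.15 kb in day 1 and 0.674, 1.29 and 1.24 kb in day 10 lists. Its late-opening region (chr12:52516151-52516839) was in all 9 PC3 lists.

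A late-opening region did not always come with more covered length at its gene. DOCK2 had 4 regions and 16.5, 18.6 and 18.8 kb in day 10 lists, against 18.8, 19.0 and 17.7 kb in control lists. DDB2, a damage-recognition gene and p53 target, had 8.12, 8.79 and 8.34 kb in day 10 and 9.39, 9.16 and 8.98 kb in control lists, so its day 10 values were all lower. BRIP1, a helicase of crosslink repair, CD44, ZEB1 and ZEB2 had day 10 and control values that overlapped. Log2 differences of day 10 minus control were −0.22 for BRIP1, −0.14 for CD44, 0.04 for ZEB1 and 0.01 for ZEB2, with SEs of 0.14, 0.09, 0.11 and 0.16, as descriptions with no test.

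PC3 lists entered the choice of genes through the exclusion and through the merging of peaks over all 18 lists, and allow a test of the same genes. Merging over MDA-MB-231 lists alone gave 2817 regions. In PC3 day 10 against control, 255 of the 1120 tested genes with a late-opening region were higher and 247 were lower (limma, threshold of 0.05 on the adjusted p), 22.8% and 22.1%. Of all 16816 tested genes, 11.8% were higher and 33.1% lower. The median log2 difference was 0.01 for the 1120 genes and −0.16 for all genes. Since the exclusion of 538 regions used these PC3 lists, the genes with a region before it were also counted, a choice made after seeing the data: 344 of 1324 were higher and 266 lower. The split depended on the scaling: with median-of-ratios scaling, which moves the median of all genes to 0.00, 396 were higher and 98 lower (80.2% of calls higher, against 50.8%), beside 3423 and 2518 of 16821 genes, and without scaling 343 and 48, beside 2819 and 1188 of 16817.

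The share of higher genes was larger with a late-opening region in both length classes. Among genes of at least 300 kb, 86 of 272 with a region were higher in PC3 day 10 (31.6%), against 115 of 479 without one (24.0%). Among shorter genes these were 169 of 848 (19.9%) and 1611 of 15217 (10.6%). The genes without one include 204 whose regions were all dropped by the exclusion, of which 89 were higher (43.6%). Whether the shares differ was not tested. In PC3 day 1 against the same control lists, 134 of the 1120 genes were higher (12.0%) and 74 lower (6.61%), against 6.02% and 7.24% of all genes. The day 1 counts moved with single lists: 88 and 87 genes were higher without PC3 day 1 replicates 1 and 3. The lower ones numbered 41 and 29 without the same lists, and 41 and 31 without PC3 control replicates 2 and 3. With median-of-ratios scaling 168 were higher and 26 lower, beside 1473 and 403 of 16821 genes, and without scaling 264 and 4, beside 2436 and 32 of 16817.

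Of the 8 named ion channel and synaptic genes with late-opening regions, 5 were higher in PC3 day 10 and 3 did not pass. KCNQ3, a potassium channel gene, had 10.9, 11.1 and 15.4 kb in PC3 day 10 lists, against 4.36, 3.10 and 3.08 kb in control lists. Its log2 difference was 1.69 ± 0.14 (SE; adjusted p = 1.98e-07, limma). NTM, an IgLON adhesion gene, had 28.5, 25.3 and 35.5 kb in PC3 day 10 and 9.19, 8.57 and 8.08 kb in control lists, a log2 difference of 1.72 ± 0.10 (adjusted p = 9.90e-09, limma). CACNA1D had 6.96, 6.79 and 7.47 kb, against 2.73, 2.13 and 2.89 kb, a log2 difference of 1.30 ± 0.17 (adjusted p = 2.73e-05, limma). In each gene the groups did not overlap. The log2 differences are on a scale of length plus 500 bp.

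KCNQ3, CACNA1D and NTM were also higher in PC3 day 1 (log2 differences 0.74, 0.85 and 0.37, with limma adjusted p of 0.00274, 0.00476 and 0.0266). DLG2 (a postsynaptic scaffold) and CNTN5 (a contactin) rose at day 10, by 0.49 ± 0.11 and 0.31 ± 0.09 (limma adjusted p = 0.00209 and 0.0138). GRIA4, KCNIP4 and LSAMP did not pass in PC3 day 10, with log2 differences of 0.15, 0.15 and 0.14. KCNIP4 passed with median-of-ratios scaling. Over the lists, 11 of 24 ion channel genes tested were higher and 2 lower in PC3 day 10, with a median of 0.34, and 13 of 24 synaptic genes were higher and 0 lower, with a median of 0.37. Both medians stayed above 0 under the other scalings. These lists consist largely of long genes: of all 751 tested genes of at least 300 kb, 26.8% were higher and 22.6% lower, beside 11.8% and 33.1% of all genes. Of the fragile-site genes 5 of 20 were higher and 3 lower. Among lists with few or no regions, higher and lower genes numbered 0 and 12 of 22 for crosslink repair, 0 and 5 of 17 for mesenchymal genes, 5 and 4 of 25 for secretory factors and 5 and 2 of 15 for haematopoietic genes. With median-of-ratios scaling those became 0 and 6, 2 and 2, 12 and 1, and 6 and 1. Housekeeping genes had 0 higher and 8 lower of 16, epithelial genes 2 and 5 of 18. AP-1 and immediate early genes had 0 and 5 of 19, p53 targets 1 and 4 of 21 and interferon-stimulated genes 5 and 4 of 19. Under median-of-ratios scaling these last 5 lists had 1 and 4, 4 and 1, 2 and 2, 4 and 1, and 8 and 2. Whether any list differs from the others was not tested.

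Among the genes with most regions, COL19A1, RGS6, ZBTB16, DOCK2 and HS6ST3 were higher in PC3 day 10 and ABTB3, ROBO1, RASEF, SNX29 and KCNIP4 did not pass. All but ZBTB16 (197 kb) and RASEF (240 kb) have bodies of at least 300 kb. Of all tested genes of that length 26.8% were higher, and of all tested genes 11.8%. ZBTB16 had 8.08, 7.30 and 11.0 kb in PC3 day 10, against 5.07, 4.75 and 3.70 kb in control lists, a log2 difference of 0.88 ± 0.12 (limma adjusted p = 4.86e-05). COL19A1 had 2.40, 2.09 and 2.63 kb against 1.42, 1.29 and 1.17 kb, a difference of 0.68 ± 0.09 (limma adjusted p = 4.63e-05). The HS6ST3 groups overlapped, with 6.27, 6.30 and 4.99 kb against 3.23, 5.20 and 3.67 kb. ABTB3 and SNX29 passed with median-of-ratios scaling (log2 differences 0.30 and 0.27).

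The densest genes by regions per 100 kb, among those with at least 3, mostly missed the threshold in PC3. SPATA18, MPZL1, PTGFRN, PPARD, ENPP2 and C10orf90 all missed it at day 10, with log2 differences between −0.15 and 0.18. Covered lengths in PC3 control lists exceeded those of MDA-MB-231 control lists at some of them: ENPP2 had 6.81, 5.63 and 8.37 kb there, and PTGFRN 2.90, 2.57 and 3.22 kb. ENPP2 passed with median-of-ratios scaling (0.36) and without scaling (0.41). MPZL1 was lower in PC3 day 1 (log2 difference −0.36 ± 0.08, limma adjusted p = 0.0101), but not without scaling (−0.10). MMP1 and MMP3 did not pass either, at −0.21 ± 0.17 and 0.02 ± 0.15.

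Of the 5 endothelial genes with a region, FLT1 and TEK, receptors for VEGF and angiopoietin, were higher in PC3 day 10, by 0.91 ± 0.17 and 0.37 ± 0.11 (limma adjusted p = 0.000488 and 0.0118), and VWF, CLDN5 and ERG did not pass, at 0.15, 0.28 and 0.36. VWF passed under both other scalings. Over the whole endothelial list 7 of 14 genes were higher and 1 lower, beside 11.8% and 33.1% of all tested genes. Its summed length was 61.4 to 77.3 kb in PC3 day 10 and 53.2 to 56.4 kb in PC3 control lists. In MDA-MB-231 it was 68.6 to 77.7 kb in day 10 and 71.1 to 76.1 kb in control lists, which overlapped. The haematopoietic list summed to 31.1 to 41.7 kb in PC3 day 10 and 27.5 to 32.9 kb in PC3 control lists. PTPRC was at 0 in every PC3 list, and CD3E and SPI1 were covered in every one. The part of other cell types in these values was not tested. KRT5 had 2.23, 2.16 and 1.89 kb in PC3 day 10, against 1.13, 1.03 and 0.765 kb in control lists, a difference of 0.82 ± 0.24 (limma adjusted p = 0.0112). OAS2, an interferon-induced antiviral enzyme, was higher by 0.40 ± 0.12 (limma adjusted p = 0.0133). CD44, ZEB1, BRIP1 and IMMP2L were lower, at −0.37, −0.47, −0.41 and −0.51 (limma adjusted p = 0.00391, 0.00216, 0.0222 and 0.00547). BRIP1, CD44 and IMMP2L no longer passed under either other scaling, and ZEB1 did not without scaling.

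MicroRNA genes near late-opening regions were counted beside those near all regions, of which the class is a small part (2775 of 232138). Of 1558 hairpins in the RefSeq table, 1 overlapped a late-opening region and 6 lay within 2 kb of one, against 321 and 770 for all regions. MIR3978 on the X chromosome lay in a region (chrX:110081734-110082593) with areas of 510 in day 10 list 1, 203 in list 2 and 248 in list 3, and a peak in all 9 PC3 lists. MIR7159 lay 26 bases from a region (chr6:33898853-33899108) with areas of 387, 274 and 316 and a peak in 0 PC3 lists. Their mature sequences are shown with the seed, bases 2 to 8, in capitals.
miR-3978: gUGGAAAGcaugcauccagggugu
miR-7159-5p: uUCAACAAggguguaggaugg
miR-7159-3p: uUUCUAUGuuaguuggaag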

How the data were processed

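Peak lists of 54 ATAC-seq samples were analysed, 18 lists in all. Per the submitters' processing notes tools included Genrich 0.6.2, SAMtools 1.6, Bowtie2 2.3.5.1, FastQC 0.12.1, R 4.4.1 and Picard, and the named builds were hg38 and GRCh38. These notes do not say how parts of a replicate were joined. The deposited lists have no header. Column 7 is a score deposited by the authors, read here from its values as peak area, and column 8 is the deposited −log10 p of each peak, never under 2.52. Areas are the authors' values, used only to describe and rank peaks within a list. Without counts, depth is unknown.

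Peaks of chromosomes 1 to 22 and X that overlapped or touched were merged, and any overlap of 1 bp put a region in a list. Gene positions (19974 protein-coding genes), promoter windows and microRNAs came from RefSeq tables of GRCh38.p14. The gene table gives no strand, so a gene end is either end. The promoter table is incomplete. Bases under peaks from 10 kb before to 10 kb after a gene were multiplied so that all lists had the same total. Genes reaching 500 bp in 3 or more lists were tested with limma 3.58.1 (R 4.3.3) on log2(length + 500 bp). All 6 groups were in 1 fit, with a variance trend, Benjamini-Hochberg adjustment over 16816 genes and 12 residual degrees of freedom. Shares were compared by two-sided exact permutation over 20 relabellings (scipy 1.17.1). Tested on simulated data for PC3 day 10 against control with 200 changed genes of 16816, the fit recovered 53.5%, 91.5% and 99.5% at log2 changes of 0.5, 1 and 2. False calls made up 7.76%, 3.68% and 5.24% of its calls at these changes.

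The regions, gene lists, tests and alternatives were chosen with earlier results of these data known. Named were the 10 regions of highest, 5 of lowest area and 5 widest, 10 at gene ends, those at promoters, the 10 genes with most regions, the 10 densest with at least 3, up to 4 per list, and 5 arms at each end. Overlapping genes share peaks. A second gene set as a check of the lines is not reported here. Replicates are cultures called biological replicates in the labels. Alternatives were other sets of peaks, region definitions, pseudocounts, scalings and filters, a replicate block and leaving out each list.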

Additional observations from a re-analysis of the deposited data

How the results depend on the processing

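The number of late-opening regions depended on the peaks admitted: 1172 when each list was cut to its 50000 largest peaks and 367 with peaks of −log10 p of at least 5, and between 2781 and 5258 without 1 MDA-MB-231 list. Regions over 10 kb from a gene made up 52.6% and 58.9% under those 2 settings, and gene ends 3.07% with the 50000 peaks. Merging over MDA-MB-231 lists or requiring 50% overlap left the count within 1.5 times. The share differences in PC3 kept their direction under all alternatives run. As shares not divided by those of all regions, they were 27.1 percentage points at day 10 and 13.5 at day 1. The differences of divided shares, without 1 list, lay between 0.2495 and 0.343 at day 10 and between 0.0692 and 0.163 at day 1. Genes with late-opening regions that were higher in PC3 day 10 numbered 396 with median-of-ratios scaling, and lower ones 98, or 48 without scaling. In PC3 day 1, higher genes numbered 56 with the 50000 peaks, 264 without scaling and between 87 and 126 without 1 list. Lower ones numbered 48 with the 50000 peaks, 26 with median-of-ratios scaling, 4 without scaling and between 29 and 66 without 1 list. The cause was not tested.

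Replicate numbers are shared between groups, but same-numbered PC3 lists deviated together weakly (correlations of 0.0288, 0.253 and 0.0297 for day 10 and control, 0.0999, −0.0444 and 0.00525 for day 1 and control). At day 10, 4 of 6 lists correlated best with their own number, and at day 1, 2 of 6. With the replicate block the PC3 share tests gave an exact permutation p of 0.25, the smallest possible, for the same differences of 0.294 at day 10 and 0.114 at day 1. The block gave 287 higher and 278 lower genes at day 10, and 164 higher and 113 lower at day 1.

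Peak lists without counts cannot separate a closed site from one below the calling limit, and the late-opening peaks lie near that limit. The part of depth in the choice of regions was not tested.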
